A study of Homo sapiens with 3 samples.

Results

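The genes described here encode the machinery that carries new proteins into the endoplasmic reticulum (ER) and starts their glycosylation: the signal recognition particle (SRP), its receptor, the Sec61 translocon with its helpers, the enzymes that remove signal peptides, and oligosaccharyltransferase (OST). They were taken by gene symbol, 36 in all, from 52674 named loci present in the expression tables of all 3 libraries. The cells were PLC, an established human hepatocellular carcinoma line. The control library came from cells that received a non-targeting hairpin (NTC), the shDIS3L2 library from cells with hairpins against DIS3L2, and the shHNRNPU library from cells with hairpins against hnRNP U. All cells were infected with hairpin virus and harvested after 48 hours, so viral infection is shared by every group. The series asks how DIS3L2, an exoribonuclease, works together with hnRNP U, a nuclear RNA-binding protein that takes part in splicing, in liver cancer.

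SRP binds a signal sequence as it emerges from the ribosome, and its receptor brings the ribosome to the Sec61 channel in the ER membrane. There the chain is threaded or inserted, its signal peptide is cut off by signal peptidase, and OST transfers a preassembled glycan to asparagine residues of the chain. Hepatocytes secrete most plasma proteins by this route.

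Expression is given as FPKM, which counts fragments relative to transcript length and to the fragments mapped in that library. Each FPKM has a deposited interval, and ratios are log2 of FPKM plus 1. A gene was called higher or lower where FPKM plus 1 differed at least 1.5-fold, the intervals of both libraries lay apart and both values had the status OK. Each group is 1 library, so no difference has a replicate check, no p-value was computed, and a call compares libraries, not conditions. The intervals cover counting and assignment error within a library only. Fewer cells of a type and less RNA per cell cannot be told apart in such data.

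Both targets were low in their own library. DIS3L2 was at 7.61 FPKM in control, 3.23 in shDIS3L2 and 11.2 in shHNRNPU, and HNRNPU at 178, 232 and 33.5. Both loci were joined with a neighbouring transcript in the tables, and the bounds of both differed between libraries. Depth, estimated from single-exon genes, was 22.98 M fragments in control, 18.3 M in shDIS3L2 and 20.05 M in shHNRNPU, where M is 1000000. All 10 hepatocyte markers were detected, from 6.21 FPKM for FGB to 11439 for SERPINA1 in control. Of these, 7 were called lower and 1 higher (FGB) in shDIS3L2, and 8 lower in shHNRNPU. Of the 11787 loci with a mean of at least 1 FPKM, 15.0% were called lower and 19.0% higher in shDIS3L2. In shHNRNPU 13.8% of them were called lower. CD3E was listed at 0 in all 3 libraries, PTPRC reached 0.44 FPKM at most, and the 4 fibroblast and stellate markers all stayed under 1 FPKM, as did the endothelial markers CDH5 and VWF. CD68 was measured only inside a locus joined with EIF4A1, and cannot be read.

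SRP is built on an RNA core, which comes from near-identical gene copies. With FPKM as deposited, this RNA was lower in both knockdown libraries than in control. RN7SL1 (hg19, chr14:50053297-50053596) was at 2519 FPKM in control, 986 in shDIS3L2 and 615 in shHNRNPU, log2 ratios against control of -1.35 and -2.03, and was called lower in both. RN7SL2 (chr14:50329271-50329567) was at 553, 379 and 400.4 FPKM, and was called in neither. Fragments of near-identical copies cannot be assigned with certainty, so the split between the copies is uncertain. The sum of both was 3071, 1365 and 1015 FPKM, 2.25-fold and 3.03-fold below control. The RN7SL1 locus also lies inside a larger locus that holds RPS29, whose fragments could be assigned to it, and the levels of such short RNAs were not set beside those of the protein-coding genes.

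Of the 36 protein-coding genes, 35 had a mean of at least 1 FPKM and were compared. The exception was SEC61A2, the second gene for the Sec61 alpha subunit, listed at 0 in all 3 libraries and overlapping the NUDT5 locus. The lowest in control was TRAM2 at 8.07 FPKM and the highest SSR4 at 893. In shDIS3L2 they were TRAM2 at 4.69 and SEC61B at 1262, and in shHNRNPU SEC63 at 7.38 and SSR4 at 921. The interval of the median gene extended 5.21% above and below its FPKM in control, 5.70% in shDIS3L2 and 5.43% in shHNRNPU. The tables joined 5 of the 36 loci with other genes (SRP19, SSR1, HM13, DDOST and STT3A), and the locus bounds of 4 (SRP19, TRAM1, SSR3 and STT3B) differed between libraries.

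**Figure D1:**
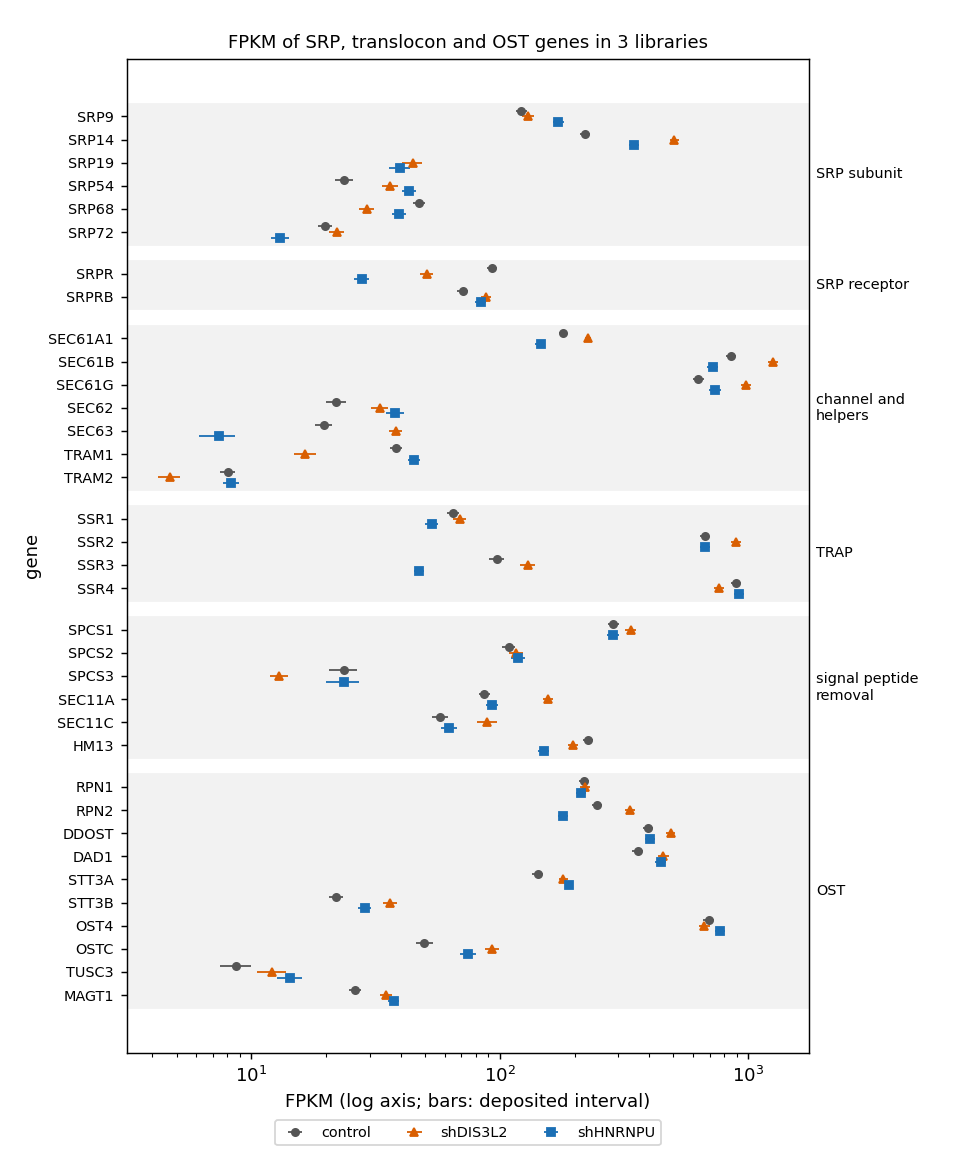
FPKM (log axis) of 35 genes in each library, grouped by role, with the deposited interval as a bar; SEC61A2 is left out, and the control value of SRP19 is not drawn because it was listed at 0. SRP14, SRPR, SEC63, TRAM1 and SSR3 are among the genes that spread visibly. Of the 35 genes, 22 were called in at least 1 comparison and 13 in none.

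In the shDIS3L2 library, 9 of the 35 genes were called higher than control (25.7%) and 5 lower (14.3%), against 19.0% higher and 15.0% lower among the 11787 loci tested. The genes called higher were SRP14, SRP19, SRP54, SEC61G, SEC63, SEC11A, SEC11C, STT3B and OSTC. Those called lower were SRP68, SRPR, TRAM1, TRAM2 and SPCS3. The median log2 ratio of the 35 was 0.34, against 0.09 over all loci tested, and 27 (77.1%) lay above 0 against 55.7% of all loci. At a 2-fold threshold, 2 were called higher (8.95% of all loci) and 1 lower (7.58%).

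In the shHNRNPU library, 5 genes were called higher than control (SRP14, SRP19, SRP54, SEC62 and TUSC3) and 4 lower (SRPR, SEC63, SSR3 and HM13). These are 14.3% and 11.4% of the 35, against 19.9% higher and 13.8% lower among all loci tested. The median log2 ratio was 0.10, against 0.12 over all loci. At a 2-fold threshold, 1 was called higher (8.32% of all loci) and 3 lower (7.46%).

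Between the knockdowns, the share of these genes called lower in shHNRNPU lay near that of all loci, and the share called higher was smaller. With shDIS3L2 as the base, 3 were called higher (TRAM1, TRAM2 and SPCS3; 8.57%) and 8 lower (SRP72, SRPR, SEC61A1, SEC61B, SEC63, SSR3, SEC11A and RPN2; 22.9%). Among all loci tested the shares were 20.4% higher and 18.7% lower. Among the 7364 loci with a mean FPKM at or above the lowest of these genes, they were 21.1% and 21.0%. The median log2 ratio of the 35 genes was -0.23, against 0.03 over all loci. At a 2-fold threshold, 1 was called higher (10.2% of all loci) and 2 lower (10.5%). The shDIS3L2 library held the highest of the 3 values for 20 of the 35 genes (57.1%), against 36.4% of all loci, and control the lowest for 18 (51.4%), against 39.0%.

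The split of the calls moves with how the libraries are scaled. Among the loci above 0 in every library, the median log2 ratio was 0.10 in shDIS3L2 and 0.13 in shHNRNPU against control, and a median-of-ratios rescaling brought these medians to about 0. All loci were then called higher and lower 1842 and 2118 times in shDIS3L2, in place of 2244 and 1765, and 1718 and 2098 times in shHNRNPU, in place of 2351 and 1625. The 35 genes then gave 6 higher and 5 lower in shDIS3L2 and 3 higher and 6 lower in shHNRNPU. Set against the median of all loci above 0, the median of the 35 genes was 0.24 higher in shDIS3L2 as deposited and 0.23 higher after this rescaling, but 0.15 higher with TPM over all rows. In shHNRNPU it was -0.03, -0.05 and -0.11 relative to that median. The 35 include SRP19, which is not above 0 in control. Without it, the medians of 34 genes as deposited were 0.33 in shDIS3L2 and 0.07 in shHNRNPU, against 0.10 and 0.13. Between the knockdowns, a rescaling to TPM over named genes gave 3146 loci higher and 1799 lower, in place of 2403 and 2209, and 3 and 5 of the 35. A rescaling to TPM over all rows, which a single ribosomal entry sets, turned the medians of the 35 against control to -0.31 in shDIS3L2 and -0.74 in shHNRNPU, with medians of all loci above 0 at -0.46 and -0.64, and left SRP19 as the 1 gene called higher than control in either. Directions given below are those of the FPKM as deposited. The calls of SRP54, SEC61G, TRAM2, SEC11C and STT3B in shDIS3L2, of SRP14, HM13 and TUSC3 in shHNRNPU, and of SRP72, SEC61A1, TRAM2 and SEC11A between the knockdowns were lost under at least 1 other rescaling or pseudocount. Ratios of 2 genes within a library, given below as shares, are free of this choice.

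**Figure D2:**
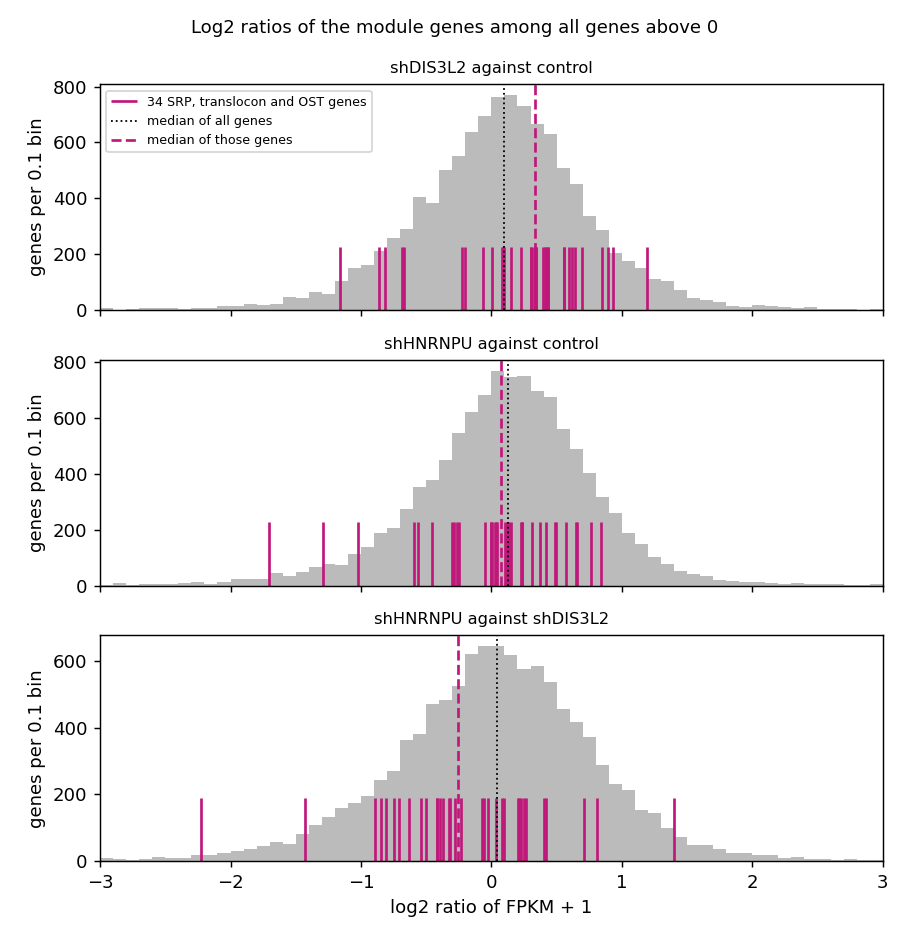
Grey bars count the 10965 loci above 0 in every library by log2 ratio of FPKM plus 1 in bins of 0.1; short vertical lines are 34 of the genes described here (without SRP19 and SEC61A2), the dashed line is their median and the dotted line that of all loci. The medians of the 34 are 0.33, 0.07 and -0.26 from the top panel to the bottom, those of all loci 0.10, 0.13 and 0.04, and 75, 82 and 100 loci lie beyond the ends of the axes.

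**Figure D3:**
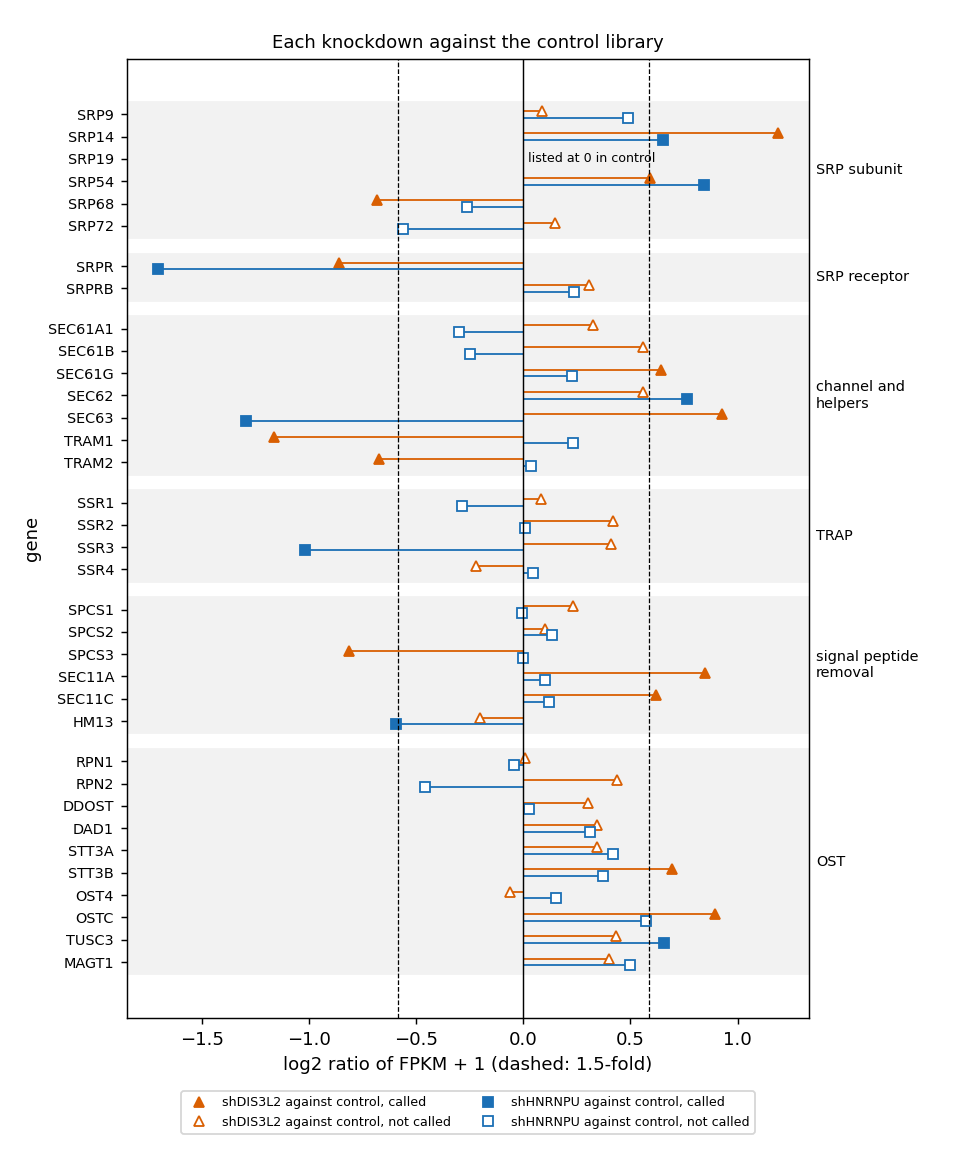
Log2 ratio of FPKM plus 1 of each gene against control (triangles shDIS3L2, squares shHNRNPU; filled where called), grouped by role, with dashed lines at 1.5-fold. With FPKM as deposited, SRP14 and SRP54 are right of 0 in both, SRPR is left of 0 in both, and SEC63 is filled on opposite sides.

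Among the SRP proteins, 3 of 6 were called higher than control in each knockdown, and 1 was called lower, in shDIS3L2 only. Of all loci tested, 19.0% and 19.9% were called higher in shDIS3L2 and shHNRNPU and 15.0% and 13.8% lower, and 1 of the 3 is SRP19, whose control value is an exact 0. SRP14, which forms with SRP9 the Alu domain that slows elongation, was at 221 FPKM in control (interval 211 to 231), 505 in shDIS3L2 (486 to 525) and 347 in shHNRNPU (330.4 to 364). The control value was the lowest, and no 2 intervals overlapped. That is 2.29-fold and 1.57-fold the control level (log2 ratios 1.19 and 0.65; hg19, chr15:40327940-40331389). Its partner SRP9 was at 122, 130.2 and 172 FPKM and was not called. SRP9 therefore made up 35.6% of the sum of both in control (33.4 to 37.9, from the interval bounds), 20.5% in shDIS3L2 (18.995 to 22.03) and 33.2% in shHNRNPU (31.0 to 35.4). The ranges of control and shHNRNPU overlap, and that of shDIS3L2 lies below both.

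SRP54, the GTPase that binds the signal sequence, was at 23.7 FPKM in control, 36.2 in shDIS3L2 and 43.2 in shHNRNPU (log2 ratios 0.59 and 0.84; chr14:35451163-35498773). Control was the lowest of the 3, and its interval of 21.6 to 25.7 lay below both others. SRP19, which helps SRP54 onto the RNA, was listed at 0 in control, 44.6 in shDIS3L2 and 39.8 in shHNRNPU. Its locus was joined with APC and other genes and had other bounds in each table, and an exact 0 can be a failed estimate. Of other loci, 60 were likewise listed at 0 in control while both knockdowns were at 5 FPKM or more. No fold was computed for SRP19, and without it 8 and 4 of 34 genes were called higher in shDIS3L2 and shHNRNPU.

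SRP68 and SRP72 form a dimer on the RNA, and their ratio in shDIS3L2 stood apart from that in the other libraries. SRP68 was at 47.4 FPKM in control, 29.1 in shDIS3L2 and 39.3 in shHNRNPU, and was called lower in shDIS3L2 (log2 ratio -0.68; chr17:74035184-74068734). SRP72 was at 19.8, 22.03 and 13.1 FPKM, and was called lower in shHNRNPU than in shDIS3L2 (-0.71; chr4:57333081-57369839) but in neither knockdown against control. SRP72 made up 29.5% of their sum in control (27.0 to 32.1), 43.1% in shDIS3L2 (39.7 to 46.6) and 24.99% in shHNRNPU (22.4 to 27.7). The ranges of control and shHNRNPU overlap.

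The SRP receptor subunits parted in both knockdowns. SRPR, the GTPase subunit that docks SRP, was at 93.2 FPKM in control (88.7 to 97.7), 50.8 in shDIS3L2 (47.9 to 53.7) and 27.8 in shHNRNPU (26.0 to 29.7). The 3 intervals were well apart, with control the highest and shHNRNPU the lowest. Control was 1.83-fold the shDIS3L2 level and 3.35-fold the shHNRNPU level (log2 ratios -0.86 and -1.71), and SRPR was also called lower in shHNRNPU than in shDIS3L2 (-0.85). Of the 35 genes it was the one called lower in both knockdowns, a pattern held by 5.50% of all loci tested. SRPRB, the membrane subunit that anchors SRPR, was at 71.0, 87.9 and 83.7 FPKM, called in no comparison. SRPR made up 56.8% of the sum of both in control (54.4 to 59.1), 36.6% in shDIS3L2 (34.2 to 39.0) and 24.95% in shHNRNPU (22.8 to 27.2). The SRPR locus (chr11:126132814-126139039) overlaps that of FOXRED1, and no label says that the libraries kept strand, so fragments of the overlap cannot be told apart. The loci of SRP19, SEC61A1, SEC63, TRAM1, TRAM2, SSR1, SSR4, DDOST and OST4 likewise overlap another expressed locus.

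Of the 7 channel genes compared, SEC61A1, the pore subunit, was at 180.4 FPKM in control, 227 in shDIS3L2 and 146 in shHNRNPU. SEC61B and SEC61G, the small subunits beside the pore, were at 856, 1262 and 719.7 FPKM and at 631, 984 and 738 FPKM. All 3 were highest in shDIS3L2. SEC61G was called higher there than in control (log2 ratio 0.64; chr7:54819943-54827667), while SEC61B at 0.56 and SEC61A1 at 0.33 did not reach 1.5-fold. SEC61A1 (-0.63; chr3:127770484-127790526) and SEC61B (-0.81; chr9:101984346-101992897) were called lower in shHNRNPU than in shDIS3L2, and SEC61G at -0.42 was not. SEC61G stood at 3.50 times SEC61A1 in control (3.21 to 3.81), 4.34 times in shDIS3L2 (4.02 to 4.69) and 5.05 times in shHNRNPU (4.57 to 5.58).

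SEC62 and SEC63 assist the channel with chains that reach it after synthesis and help open it, and SEC63 recruits the chaperone BiP on the luminal side. SEC63 was at 19.6 FPKM in control (18.1 to 21.1), 38.2 in shDIS3L2 (35.7 to 40.6) and 7.38 in shHNRNPU (6.17 to 8.60). The value was 1.95-fold the control level in shDIS3L2 and 2.65-fold below it in shHNRNPU (log2 ratios 0.93 and -1.29; chr6:108188960-108279393). Between the knockdowns the levels differed 5.17-fold (-2.22). SEC63 was the one gene of the 35 called higher in shDIS3L2 and lower in shHNRNPU, a pattern held by 1.20% of all loci tested, and none of the 35 had the opposite pattern (1.17% of all loci).

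SEC62 was at 21.99 FPKM in control, 32.9 in shDIS3L2 and 38.0 in shHNRNPU. It was called higher in shHNRNPU (log2 ratio 0.76; chr3:169684423-169716161) and lay at 0.56 in shDIS3L2. SEC63 made up 47.1% of the sum of both in control (42.9 to 51.4), 53.7% in shDIS3L2 (50.2 to 57.2) and 16.3% in shHNRNPU (13.1 to 19.8). The first 2 of these ranges overlap, and that of shHNRNPU lies far below both.

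TRAM1, a membrane protein that aids chains with weak signal sequences, and its paralog TRAM2 were both low in shDIS3L2. TRAM1 was at 38.3 FPKM in control (36.03 to 40.5), 16.5 in shDIS3L2 (14.9 to 18.2) and 45.2 in shHNRNPU (42.6 to 47.7). TRAM2 was at 8.07, 4.69 and 8.30 FPKM. Their log2 ratios in shDIS3L2 were -1.16 (chr8:71485677-71520653) and -0.67 (chr6:52362200-52441713), and neither was called in shHNRNPU against control. In shHNRNPU against shDIS3L2 they were 1.40 and 0.71. TRAM2 made up 17.4% of their sum in control (15.7 to 19.3), 22.1% in shDIS3L2 (18.8 to 25.8) and 15.5% in shHNRNPU (13.9 to 17.3), so the ranges of control and either knockdown overlapped. The bounds given for TRAM1 are those of the control table, as for every locus here.

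The TRAP complex sits beside the channel and helps selected substrates enter. Its gene SSR3 was at 97.3 FPKM in control (90.7 to 103.9), 129.6 in shDIS3L2 (120.5 to 139) and 47.4 in shHNRNPU (45.1 to 49.7). It was called lower in shHNRNPU, 2.05-fold below control and 2.73-fold below shDIS3L2 (log2 ratios -1.02 and -1.43; chr3:156257929-156272973). The other 3 TRAP genes were called in no comparison. SSR1 was at 65.1, 69.1 and 53.2 FPKM, SSR2 at 669, 895 and 672, and SSR4 at 893, 765 and 921. SSR3 made up 59.9% of the sum with SSR1 in control (56.9 to 62.8), 65.2% in shDIS3L2 (62.3 to 68.1) and 47.1% in shHNRNPU (44.4 to 49.9). The shHNRNPU range lay below both others.

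Signal peptidase is built from SPCS1, SPCS2, SPCS3 and a catalytic subunit, SEC11A or SEC11C. Both catalytic genes were called higher in shDIS3L2. SEC11A was at 86.8 FPKM in control, 157 in shDIS3L2 and 93.2 in shHNRNPU (log2 ratio 0.85 in shDIS3L2; chr15:85212775-85259947). SEC11C was at 57.7, 89.2 and 62.7 FPKM (0.62). SEC11C made up 39.9% (36.9 to 43.0), 36.2% (33.1 to 39.4) and 40.2% (37.2 to 43.3) of the sum of both in control, shDIS3L2 and shHNRNPU, ranges that all overlap.

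SPCS3, an accessory subunit of the same enzyme, went the other way. It was at 23.6 FPKM in control (20.5 to 26.7), 13.0 in shDIS3L2 (11.9 to 14.1) and 23.5 in shHNRNPU (19.99 to 27.1). The shDIS3L2 library alone was low (log2 ratio -0.82; chr4:177241115-177253396), and the other libraries overlapped. SPCS1 was at 287, 336 and 286 FPKM and SPCS2 at 108, 116 and 119, called in no comparison. HM13, the signal peptide peptidase that cuts the peptide left in the membrane, was at 227, 197 and 150.0 FPKM and was called lower in shHNRNPU (-0.60; chr20:30102231-30157370). Its locus is joined with another transcript, and that ratio lies close to the 1.5-fold threshold.

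**Figure D4:**
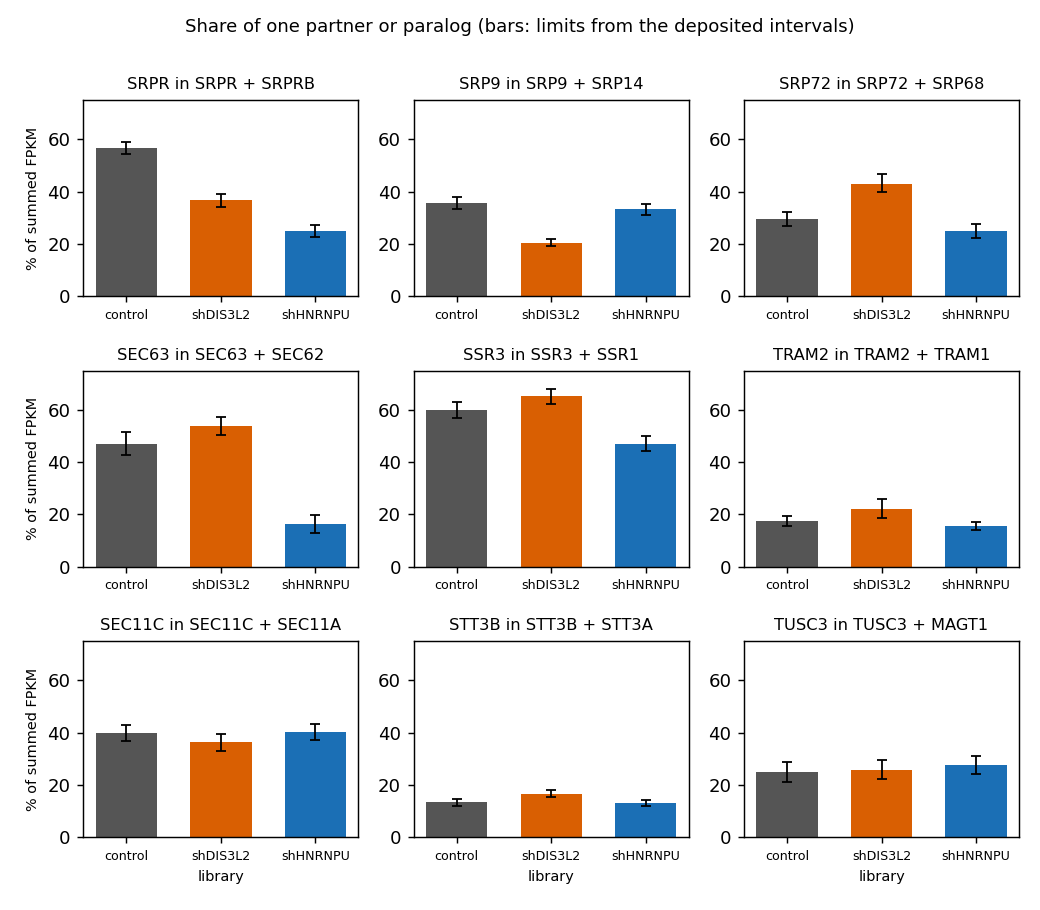
Share of the first gene in the summed FPKM of 9 pairs of partners or paralogs (percent, y axis) in each library; error bars run between the limits that the deposited intervals allow. The SRPR share is 56.8% in control and 36.6% in shDIS3L2, the SEC63 share is 16.3% in shHNRNPU, and the bars for SEC11C and for TUSC3 overlap in all 3 libraries.

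With FPKM as deposited, 2 of the 10 OST genes were called higher in shDIS3L2, 1 in shHNRNPU, and none lower than control in either. The share called higher, 20% and 10%, lies near or below the 19.0% and 19.9% of all loci tested. The catalytic subunits are STT3A, which works at the channel during synthesis, and STT3B, which also glycosylates sites missed at the channel. STT3B was at 21.96 FPKM in control, 36.1 in shDIS3L2 and 28.7 in shHNRNPU, and was called higher in shDIS3L2 (log2 ratio 0.69; chr3:31574130-31679112). STT3A was at 142, 180.5 and 191 FPKM (0.34 and 0.42, not called). STT3B made up 13.4% of the sum of both in control (12.1 to 14.8), 16.7% in shDIS3L2 (15.2 to 18.2) and 13.1% in shHNRNPU (12.004 to 14.2).

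OSTC, which links the STT3A form of OST to the channel, was at 49.8 FPKM in control (46.0 to 53.6), 93.4 in shDIS3L2 (87.3 to 99.5) and 74.7 in shHNRNPU (69.4 to 79.9). Control was the lowest and no intervals overlapped. The log2 ratio was 0.89 in shDIS3L2 (chr4:109571740-109588976) and 0.57 in shHNRNPU, the latter just under the 1.5-fold threshold. TUSC3 and MAGT1, the alternative oxidoreductase subunits of the STT3B form, were at 8.71, 12.1 and 14.3 FPKM and at 26.2, 34.9 and 37.4 FPKM. TUSC3 was called higher in shHNRNPU (0.66; chr8:15274724-15624158) and MAGT1, at 0.50, was not. TUSC3 made up 24.96% (21.3 to 28.7), 25.8% (22.2 to 29.5) and 27.7% (24.3 to 31.2) of their sum.

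RPN2, a structural OST subunit, was at 247 FPKM in control, 335 in shDIS3L2 and 179.7 in shHNRNPU. It was called lower in shHNRNPU than in shDIS3L2 (log2 ratio -0.89; chr20:35806813-35870022) and in neither knockdown against control, at 0.44 and -0.46. RPN1, the subunit that holds the growing chain near the active site, was at 219, 220.3 and 212 FPKM, with all 3 intervals overlapping. DDOST was at 395, 487 and 402 FPKM, DAD1 at 359, 455 and 446, and OST4 at 695, 666 and 772, and these structural subunits were called in no comparison.

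In all, 13 of the 35 genes were called in no comparison of the 3: SRP9, SRPRB, SSR1, SSR2, SSR4, SPCS1, SPCS2, RPN1, DDOST, DAD1, STT3A, OST4 and MAGT1. These are 37.1%, against 40.4% of all loci tested. The comparisons of shDIS3L2 and of shHNRNPU with control share the control library, so a value that is off in control moves both. In those 2 comparisons 17 of the 35 were called in neither, against 47.0% of all loci tested.

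Other protein-coding genes of the route were taken from fixed lists of 41 genes, of which 40 were compared and 37 were above 0 in every library. Of these 37, 9 (24.3%) were called higher and 5 (13.5%) lower in shDIS3L2, against 18.1% and 13.4% of all loci above 0 in every library. In shHNRNPU 4 (10.8%) were called higher and 3 (8.11%) lower, against 19.2% and 12.2%. In shHNRNPU against shDIS3L2, 2 (5.41%) were called higher and 8 (21.6%) lower, against 19.3% and 17.5%. The genes left out were EMC1, EMC6 and EMC8, each listed at 0 in a knockdown library. With all 40, 9 (22.5%) were called higher and 6 (15%) lower in shDIS3L2, against 19.0% and 15.0% of all loci tested. In shHNRNPU they were 4 (10%) and 5 (12.5%), against 19.9% and 13.8%. Between the knockdowns they were 3 (7.5%) and 10 (25%), against 20.4% and 18.7%. The medians of the 37 were 0.01, 0.02 and -0.10, against 0.10, 0.13 and 0.04 over all loci above 0. RRBP1 and KTN1, ER membrane proteins linked to ribosome and microtubule binding, had the largest ratios of the docking list. RRBP1 was at 51.0 FPKM in control, 93.9 in shDIS3L2 and 13.5 in shHNRNPU (log2 ratios 0.87 and -1.84, bounds differing between libraries), so it was called higher in shDIS3L2 and lower in shHNRNPU, as SEC63 was. KTN1 was at 18.6, 50.5 and 22.1 FPKM (1.39 in shDIS3L2). NACA, which shields nascent chains from SRP, was called lower in shHNRNPU than in shDIS3L2 (-0.79).

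Among proteins that join Sec61 for membrane proteins with several spans, CCDC47 was at 40.4 FPKM in control, 21.5 in shDIS3L2 and 13.7 in shHNRNPU, lower in both. WDR83OS was at 128, 298 and 291 FPKM, higher in both, and TMCO1 at 66.8, 111 and 86.6 was called higher in shDIS3L2. The loci of CCDC47 and WDR83OS were joined with other genes, and so were those of NACA above and UBL4A below. The locus bounds of CCDC47, WDR83OS, UBL4A, CAMLG and SPPL2A differed between libraries. In the list of the ER membrane complex, an inserter of membrane proteins, EMC1 and EMC6 were listed at 0 in shHNRNPU and EMC8 at 0 in shDIS3L2, for which no fold is given. EMC3 was called lower in shDIS3L2 (-0.71) and EMC9 lower in both knockdowns (-0.64 and -0.81). EMC2 (0.73) and MMGT1 (0.74) were called higher in shHNRNPU. The EMC3 locus was joined with another transcript, and its bounds differed between libraries. Of the tail-anchor insertion list, UBL4A was called lower (-0.94) and WRB higher (0.95) in shDIS3L2, and CAMLG higher in both (0.59 and 0.59). HYOU1, an ER chaperone and exchange factor for BiP, was at 138, 70.7 and 125 FPKM (-0.96 in shDIS3L2), and DNAJC1, a membrane co-chaperone, at 13.0, 31.0 and 14.2 (1.20). HSPA5, which encodes BiP, was at 300.3, 368 and 314 FPKM and was not called. SPPL2A, a relative of HM13, was called higher in shDIS3L2 (0.60, close to the 1.5-fold threshold), and MLEC, a lectin that binds OST, likewise (0.74).

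The lists of ER chaperones and of the enzymes that build the OST glycan stood as follows. Of 19 chaperone genes compared, 4 were called higher and 2 lower in shDIS3L2, and 2 and 3 in shHNRNPU, with medians of 0.17 and 0.07. That is 21.1% higher and 10.5% lower in shDIS3L2 and 10.5% and 15.8% in shHNRNPU. HERPUD1 was at 30.04 FPKM in control, 98.2 in shDIS3L2 and 56.2 in shHNRNPU, called higher in both (log2 ratios 1.68 and 0.88). DNAJB11 was at 49.5, 106.7 and 67.7 FPKM and was called higher in shDIS3L2 (1.09). HYOU1, given above as lower in shDIS3L2, is also in the chaperone list. Of 20 glycan assembly genes, 3 were called higher and 3 lower in shDIS3L2, and 2 and 4 in shHNRNPU, with medians of -0.11 and -0.06. That is 15% each way in shDIS3L2 and 10% and 20% in shHNRNPU. All loci tested gave 19.0% higher and 15.0% lower in shDIS3L2, and 19.9% and 13.8% in shHNRNPU. The medians of the 35 genes above were 0.34 and 0.10. In shHNRNPU against shDIS3L2, 2 chaperone genes (10.5%) were called higher and 6 (31.6%) lower, with a median of -0.23. Of the glycan assembly genes, 3 (15%) were called higher and 4 (20%) lower there, with a median of 0.10. All loci tested gave 20.4% and 18.7% there, and the median of the 35 genes was -0.23. No test compared these lists.

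Promoters were searched for motifs of the unfolded protein response, whose factors bind genes of this route. RefSeq promoters (GRCh38.p14, 250 bases before to 50 after the start) were matched by symbol for 29 of the 36 genes, 37 promoters in all. The letters TGACGTGG, the core of the XBP1-type element (UPRE), searched on both strands, were found in 4 of the 37 promoters (10.8%), against 0.729% of 35116 promoters of the same length. Counted by gene, these are 4 of 29 (13.8%), against 0.927% of 27305 genes. That background holds genes whether or not they were expressed in these cells, and no background of expressed genes was made. The ERSE motif (CCAAT, 9 bases of any kind, CCACG) and ERSE-II (ATTGG, 1 base of any kind, CCACG) were searched likewise and found in none of the 37, against 0.0769% and 0.0541% of all promoters. The letters CCAAT, which also occur inside ERSE, were found in 18 (48.6%), against 34.6%. The 4 windows with the UPRE letters are shown 5′ to 3′ on the gene's strand, with the match in capitals, which in each is the reverse complement CCACGTCA.
SEC62, chr3:169966750-169966806, plus strand: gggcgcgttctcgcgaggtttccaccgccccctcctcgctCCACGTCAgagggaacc
SRP19, chr5:112861135-112861222, plus strand: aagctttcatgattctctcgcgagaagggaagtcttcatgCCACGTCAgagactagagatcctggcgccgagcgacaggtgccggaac
SSR3, chr3:156554126-156554206, minus strand: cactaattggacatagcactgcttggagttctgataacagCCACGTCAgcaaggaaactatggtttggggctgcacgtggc
SSR4, chrX:153794499-153794586, plus strand: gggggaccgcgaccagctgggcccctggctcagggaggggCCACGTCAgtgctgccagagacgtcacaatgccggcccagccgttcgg

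The match begins 17 bases before the start site in SEC62, 112 in SRP19, 41 in 1 of the promoters of SSR3, and 129 in SSR4. The 4 genes had no call in common. SEC62 was called higher and SSR3 lower in shHNRNPU, SSR4 was not called, and SRP19 was the gene listed at 0 in control. A match of letters is a description of the reference sequence and not a measured site.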

How the data were processed

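RNA-seq of 3 PLC libraries, 1 per group, was used. Per the labels' protocols, RNA was taken up in TRIZOL, cleaned on a column with DNase and prepared with the NEBNext Ultra RNA kit. The submitters' processing notes name TopHat2 2.0.12, Cufflinks 2.2.1 and hg19. The annotation release and the number of hairpins per target were not stated. Per the file headers, the deposited FPKM of each gene carry an interval and a status. The interval was read as 95%, the default of Cufflinks, since no header gives its level.

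Names at joined loci were split at commas, giving 55868 names, and each name took its locus of highest mean FPKM. A joined locus counted once among the 11787 loci with a mean FPKM of at least 1. Locus starts were made 1-based and come from the control table. Ratios used a pseudocount of 1, which understates changes of low genes. The limits of a share combine the lower bound of one gene with the upper bound of the other. Depth is an estimate, from the FPKM worth of 1 fragment in 63, 75 and 77 long single-exon genes. The control table held 0 mitochondrial rows, against 11 and 10, and whether this touches the scaling of FPKM is not known.

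Genes named in full were those called in any comparison and both genes of each paralog pair, with up to 3 called genes of each other list. For the ER membrane complex list, every called gene was named. Members and lists were chosen with earlier results of these data known. The call rule was tested on simulated data whose noise was drawn from the deposited intervals of control. Variation between replicate libraries was not simulated, so the rule was not tested against it. Python 3.11.15, pandas 2.3.3, numpy 2.4.6 and matplotlib 3.10.9 were used. The sequences of the SRP RNA genes are not reported here.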

Additional observations from a re-analysis of the deposited data

How the results depend on the processing

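No paired analysis was possible because each group has 1 library, and for the same reason no replicate could be left out. Pseudocounts of 0.1 and 5, other filters on FPKM, loci with 1 name or with the same bounds, sums over loci, genes listed at 0 left out and intervals ignored kept every count within 1.5 times the value given. The 2-fold rule gave 2 higher and 1 lower in shDIS3L2, 1 higher in shHNRNPU, and 1 higher and 2 lower in shHNRNPU against shDIS3L2. Median-of-ratios rescaling gave 3 higher in shHNRNPU, and medians of 0.23 in shDIS3L2 and -0.053 in shHNRNPU. Rescaling to TPM over named genes, added after seeing the data, gave 5 higher and a median of 0.22 in shDIS3L2, and 5 lower and a median of -0.072 in shHNRNPU against shDIS3L2. TPM over all rows is set by 1 ribosomal entry, RNA5-8S5, which held 54.0%, 68.7% and 72.5% of the summed FPKM in control, shDIS3L2 and shHNRNPU. It gave 1 higher, 9 lower and a median of -0.31 in shDIS3L2, 1 higher, 24 lower and a median of -0.74 in shHNRNPU, and 1 higher, 14 lower and a median of -0.47 between the knockdowns. Of the 9796 loci then tested, 538 were higher and 3934 lower in shDIS3L2, 337 and 5111 in shHNRNPU, and 1154 and 2449 between the knockdowns. Under it the ratio turned negative for SRP54 (-0.035), SEC61G (-0.0095) and SEC11C (-0.023) in shDIS3L2, and for SRP14 (-0.24), SRP54 (-0.022), SEC62 (-0.10) and TUSC3 (-0.14) in shHNRNPU. Apart from the 2-fold rule and TPM over all rows, calls held under every setting that could be applied for 9 of 14 genes in shDIS3L2, 6 of 9 in shHNRNPU and 7 of 11 between the knockdowns. SRP19 is counted among those held in shDIS3L2 and in shHNRNPU, but this says nothing of its stability. Rescaling cannot change its control value of 0, and the settings on bounds, names and values of 0 left it out. Depth limits low genes most: the widest intervals reached 14.0% of the FPKM for TUSC3 in control and 16.5% for SEC63 in shHNRNPU.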
